A study of Mus musculus with 583 samples.

Results

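The translation initiation factor genes were taken as the rows whose GENCODE M21 biotype is protein_coding and whose symbol starts with Eif and a digit from 1 to 6. There were 55 such genes among 38924 mouse gene rows, and each had at least 1 count somewhere in the data. A filter on low counts left 14293 genes for testing, 52 of these 55 among them. The 3 that were not tested were Eif4e1b with 16 counts in all libraries, Eif4e3 with 30 and Eif4ebp3 with 4.

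The data are single-cell RNA-seq counts of J1, a male mouse embryonic stem (ES) cell line, grown in 2i/LIF, a medium with a pair of kinase inhibitors and the cytokine LIF that holds the cells in the naive state. All 583 cells are of this line and medium, and by the labels the groups differ in how the libraries were made. In Smart-seq / C1, run on the Fluidigm C1 chip, and Smart-seq2, reads come from the full length of a transcript and are counted as reads. In CEL-seq2, also on the C1 chip, and in MARS-seq, complementary DNA is amplified by in vitro transcription (IVT), and in Drop-seq, where single cells are caught in droplets with primer beads, and SCRB-seq, from cells sorted by FACS, by PCR. These 4 methods read a tag near the 3′ end and count unique molecular identifiers (UMIs). Each of the 6 methods has 2 libraries, A and B. Nothing in the labels says that A and B came from separate cultures, so the p-values measure only how far these libraries differ among themselves, which can be technical.

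The tests were made on the sums of the cells of each library, which held 17630767 to 34984056 mouse gene counts in the 4 full-length libraries and 583302 to 2784441 in the 8 tag libraries, from 29 to 80 cells each. Levels are CPM, each library's counts scaled to a common total (TMM), unless stated. The 10 naive ES cell genes checked, Pou5f1, Sox2 and Nanog among them, had counts in every library and summed to 3303 to 7299 CPM, while the lists for 6 other cell states or types summed to 0 to 88.3 CPM. These sums of marker genes are CPM without TMM scaling. In Drop-seq, 29 of 42 barcodes in library A and 12 of 34 in library B lay 1 base from another barcode of the same library, so some of its cells may be 1 cell counted under several barcodes. Sums over cells do not change with this, but values among cells do. Only the test of variation among cells is also given with such barcodes joined. All other values among Drop-seq cells below are per barcode. Spike-in RNA made up to 82.0% of the counts of a cell in Smart-seq / C1 B and at most 0.242% in Drop-seq, and was left out of every total below unless stated.

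Initiation factors bring the small ribosomal subunit and the initiator transfer RNA to the start codon of a messenger RNA. Eif2 carries the initiator transfer RNA as a complex with GTP, Eif2b recharges Eif2 with GTP, and the Eif2ak kinases phosphorylate Eif2 under stress and so slow initiation. Eif3, the complex with the most subunits, holds the small subunit together with its partners, Eif1 and Eif1a guard the choice of the start codon, the Eif4 proteins bind the cap and unwind the leader, and Eif5, Eif5b and Eif6 act at subunit joining. ES cells translate at a modest rate, and the Eif4ebp proteins, which hold the cap-binding protein back, are known to limit translation in them.

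The 55 genes together took 1.73% ± 0.126 of the mouse gene counts with Smart-seq / C1 and 1.77% ± 0.111 with Smart-seq2 (SD, n = 2 libraries per method here and below). Their share was 1.55% ± 0.173 in CEL-seq2, 1.25% ± 0.0806 in MARS-seq, 1.88% ± 0.0175 in Drop-seq and 1.60% ± 0.110 in SCRB-seq. MARS-seq was the lowest and Drop-seq the highest, and the 2 full-length methods lay within each other's spread. Of the initiation factor counts, the 14 Eif3 genes took 30.8% to 32.7% in the full-length libraries and 23.9% to 35.9% in the tag libraries, the lowest being the CEL-seq2 libraries with 24.6% and 23.9%. The 16 Eif4 genes took 25.9% to 29.2% in the full-length and 16.6% to 27.0% in the tag libraries, with both Drop-seq libraries, at 16.6% and 17.4%, below every other library. The 15 Eif2 genes took up to 18.9% in the full-length and up to 26.3% in the tag libraries, and the 4 Eif5 genes 11.4% to 19.4% in the full-length and 9.53% to 18.4% in the tag libraries. The 5 Eif1 genes took 5.64% to 9.997% in the full-length and 5.26% to 13.4% in the tag libraries, where CEL-seq2 was the highest, and Eif6 took 0.551% to 2.99% in the full-length libraries, the upper end in Smart-seq2, and 0.663% to 1.70% in the tag libraries.

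Levels were ranked between genes on a scale without transcript length for the tag libraries, where a transcript gives 1 tag, and per kilobase of the longest coding transcript for the full-length libraries. The leading genes of the tag libraries were Eif2s2, the β subunit of Eif2, with a median of 2213 CPM over the 8 libraries, Eif5a, an elongation and initiation protein that carries hypusine, with 1031 CPM, Eif3a, the largest Eif3 subunit, with 711 CPM, Eif4ebp1 with 682 CPM and Eif3k with 589 CPM. Eif2s2, between 1269.8 and 3565 CPM, lay above every value of Eif4ebp1 and Eif3k, but its range overlapped those of Eif5a, between 669.9 and 2388 CPM, and Eif3a, and the ranges of the other 4 overlapped each other. In the full-length libraries the leading genes were Eif5a with a median of 1391 CPM per kilobase, Eif3k with 685, Eif3l with 374, Eif3i with 341 and Eif3g with 336. Eif2s2 ranked 7 of 52 there, with 234 CPM per kilobase. At the low end of the tag libraries were Eif2ak3, the kinase of the endoplasmic reticulum, with a median of 6.43 CPM, Eif5a2, the second Eif5a gene, with 8.50 CPM, Eif2ak4, the kinase that senses uncharged transfer RNA, with 13.5 CPM, Eif2ak2, the kinase that senses double-stranded RNA, with 15.7 CPM, and Eif4g3 with 16.9 CPM. All 5 also ranked 44 or lower in the full-length libraries, where Eif3j1 was the lowest, with a median of 0.262 CPM per kilobase. The fourth kinase, Eif2ak1, which senses heme, had a median of 42.1 CPM, the highest of the kinases, but in both SCRB-seq libraries Eif2ak4, with 55.2 and 48.8 CPM, was above Eif2ak1, with 39.2 and 43.7 CPM.

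**Figure D1:**
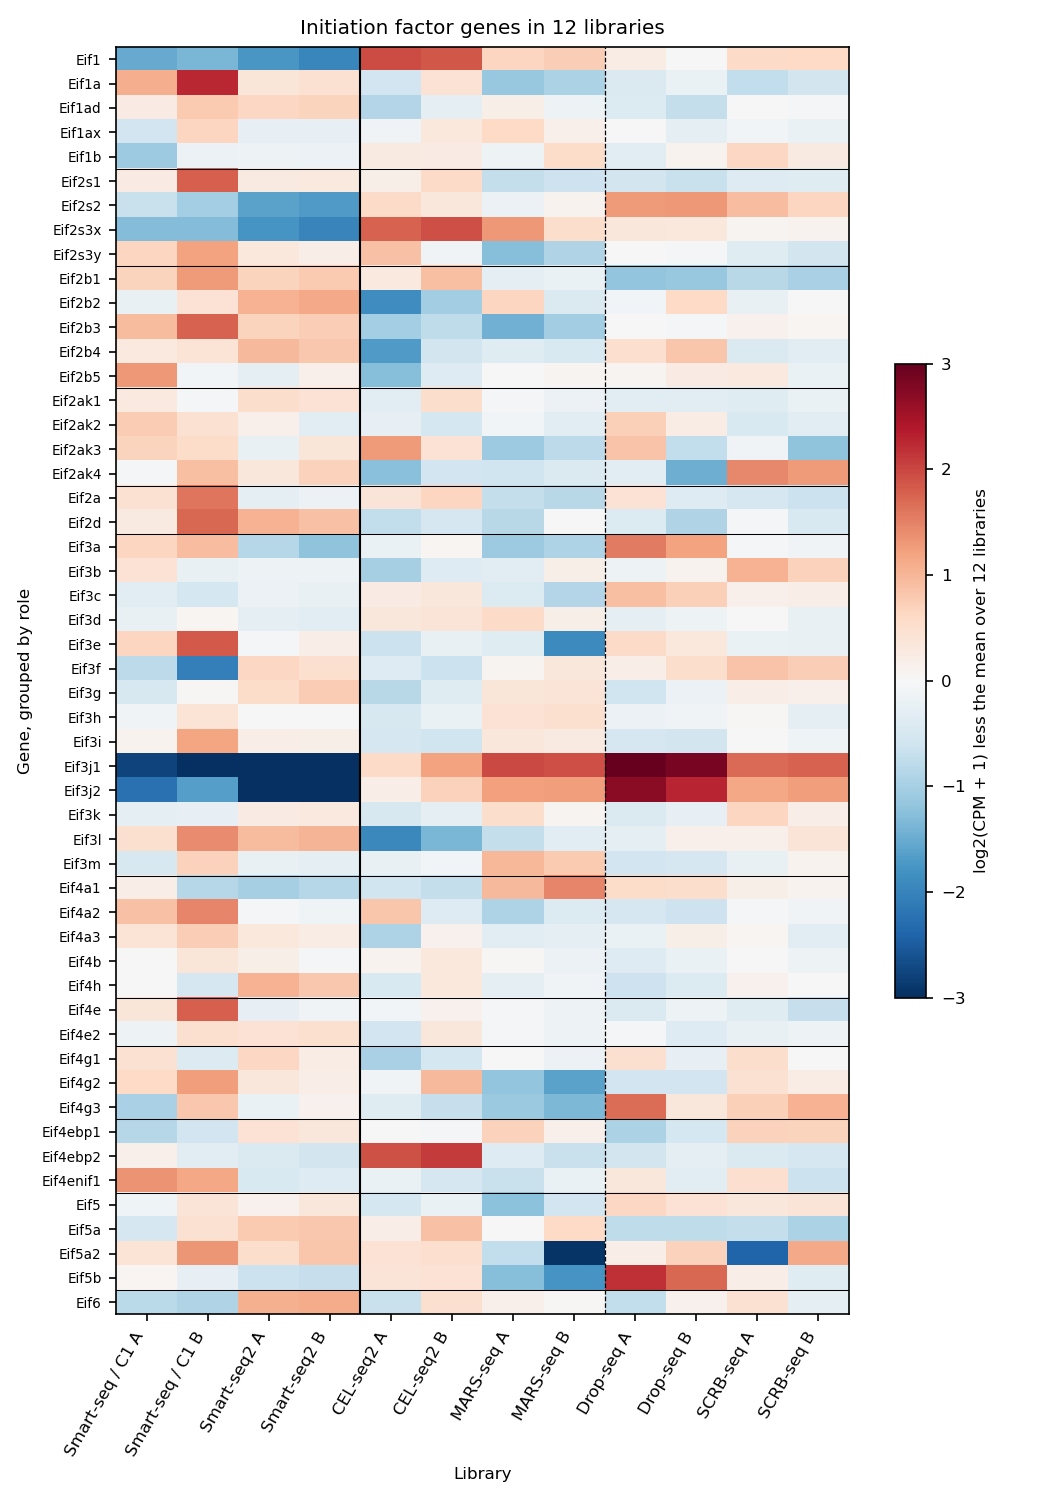
Each row is 1 of the 52 tested genes, grouped by role, and each column 1 of the 12 libraries. Colour gives log2(CPM + 1) less the mean of that gene over the 12 libraries, on a scale that ends at −3 and 3, the solid line parts the full-length libraries (left) from the 3′ tag libraries, and the dashed line parts the IVT from the PCR tag libraries. Eif3j1 and Eif3j2 are blue in all 4 full-length libraries and red in most tag libraries, Eif1 and Eif2s3x are blue in the full-length libraries, and Eif2b1, Eif2b3, Eif2d and Eif3l lean to red there.

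Over all 6 methods, 39 of the 52 tested genes differed between methods (edgeR's quasi-likelihood test, adjusted p below 0.05 over all 14293 genes), or 75.0%, against 65.4% of all genes tested. The 13 that did not pass were Eif1ax, Eif1b, Eif2ak1, Eif2ak2, Eif2ak3, Eif2b5, Eif3d, Eif3h, Eif4a3, Eif4b, Eif4e2, Eif4g1 and Eif5a2. Eif4b, a helper of the Eif4a helicase, lay between 316 and 422 CPM in the full-length libraries and between 248 and 405 CPM in the tag libraries, and Eif3d between 306 and 393 CPM in the full-length and between 307 and 561 CPM in the tag libraries.

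The first comparison asked which genes differ between full-length reads and 3′ tags. Full-length libraries gave higher levels of 19 genes and lower levels of 9, and 24 did not pass, so 53.8% passed, against 48.8% of all genes tested (25.6% higher and 23.2% lower). The median log2 fold change was 0.44 over the 52 genes and 0.21 over all genes. Values of full-length and tag libraries did not overlap for 10 of the 52 genes, or 19.2%, against 17.5% of all genes. Eif1ad, Eif2b3, Eif2d, Eif3l and Eif4a3 lay above, and Eif1, Eif2s2, Eif2s3x, Eif3j1 and Eif3j2 below. Scaling by DESeq2's size factors moved the median of all genes by −0.14 on the log2 scale, kept 24 of the 28 calls, lost Eif2a, Eif4a3, Eif4h and Eif5a, and added Eif1b. Across genes, longer transcripts had a higher log2 fold change of full-length over tag methods (Spearman 0.44 over 14156 genes, a description with no test). The 52 genes showed no such trend (Spearman 0.01). With the length trend removed, 24 of the 52 passed, 16 of them among the 28 above, and the split turned to 9 higher and 15 lower. The 12 calls lost were all of higher genes, and the 8 gained were Eif1ax, Eif3a, Eif3b, Eif3d, Eif4ebp1 and Eif4ebp2 as lower and Eif3g and Eif3k as higher. The split was 11 higher and 12 lower with cells thinned to 10000 counts before summing, 15 and 13 with DESeq2's own test, 26 and 6 without the filter, and 25 and 6 with limma on mean log values, so the balance of directions rests on the processing.

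The Eif2 trimer showed changes in both directions: 2 of its 4 genes rose and 2 fell, with a median log2 fold change of −0.49. Eif2s3x and Eif2s3y encode the γ subunit, which binds GTP and the initiator transfer RNA, from the X and the Y chromosome, and Eif2s1 encodes the α subunit that the kinases phosphorylate. Eif2s3x had 18.04 and 17.8 CPM in Smart-seq / C1 and 12.7 and 10.9 CPM in Smart-seq2, against 158 and 176 CPM in CEL-seq2, 115 and 65.9 CPM in MARS-seq, 58.4 and 56.7 CPM in Drop-seq and 48.1 and 48.8 CPM in SCRB-seq. All 4 full-length libraries were below all 8 tag libraries, and the log2 fold change was −2.47 ± 0.25 (SE, adjusted p = 2.5e-07). Eif2s3y had 111 and 164 CPM in Smart-seq / C1 and 87.9 and 82.1 CPM in Smart-seq2, against 131 and 65.6 CPM in CEL-seq2, 28.7 and 37.7 CPM in MARS-seq, 70.5 and 69.6 CPM in Drop-seq and 54.7 and 48.4 CPM in SCRB-seq. The full-length libraries were the higher ones but for CEL-seq2 A, and the log2 fold change was 0.88 ± 0.23 (adjusted p = 0.0040). The 2 copies thus moved in opposite directions, and with the length trend removed Eif2s3y no longer passed (0.42). Ddx3y and Uty, other genes of the Y chromosome, were also higher in the full-length libraries, with log2 fold changes of 1.24 and 2.17, and any part of this in the Eif2s3y value was not tested.

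Eif2s2 had 910.2 and 712 CPM in Smart-seq / C1 and 476 and 444 CPM in Smart-seq2, against 2159 and 1815 CPM in CEL-seq2, 1269.8 and 1558 CPM in MARS-seq, 3474 and 3565 CPM in Drop-seq and 2723 and 2266 CPM in SCRB-seq. The groups did not overlap, and the log2 fold change was −1.87 ± 0.20 (adjusted p = 3.1e-07). Eif2s1 had 342 and 993 CPM in Smart-seq / C1 and 345 and 354 CPM in Smart-seq2, against 176 to 426 CPM in the tag libraries, with CEL-seq2 the highest of these. Its log2 fold change of 1.07 ± 0.23 (adjusted p = 7.9e-04) dropped to 0.58 without Smart-seq / C1 B and still passed, but with the length trend removed it was 0.51 and did not pass.

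Because Eif2s3x and Eif2s2 have processed copies elsewhere in the genome, the last 60 coding bases, stop codon included, are given 5′ to 3′ with those of a relative or copy (read from GRCm38, the build also called mm10, on the strand of the gene, with capitals for bases that differ from the first line of each set). Eif2s3x lies at chrX:94190859-94190918 (minus strand) and Eif2s3y at chrY:1028192-1028251 (plus strand), and Gm2223, a processed pseudogene, at chrX:33506951-33507010 (plus strand).
Eif2s3x: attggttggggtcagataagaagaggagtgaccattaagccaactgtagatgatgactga
Eif2s3y: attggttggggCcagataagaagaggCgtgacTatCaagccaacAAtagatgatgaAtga
Gm2223: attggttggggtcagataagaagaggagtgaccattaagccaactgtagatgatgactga
Eif2s3y differs from Eif2s3x at 7 of these 60 bases and Gm2223 at 0, and the Eif2s3x stretch occurs 3 times on the primary chromosomes. Of the 31-base words of the Eif2s3x transcript, 94.7% occur elsewhere in the genome, against 0.222% for Eif2s3y. For Eif2s2, at chr2:154872725-154872784 (minus strand), and the processed pseudogene Gm9892, at chr8:52196061-52196120 (minus strand), the stretches are identical.
Eif2s2: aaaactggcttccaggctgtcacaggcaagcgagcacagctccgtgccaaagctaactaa
Gm9892: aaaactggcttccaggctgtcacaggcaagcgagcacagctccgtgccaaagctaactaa
The Gm9892 row held 1815 counts in the full-length and 11145 in the tag libraries, and that of Gm2223 held 52 and 121. These are raw counts, and every full-length library held more mouse gene counts than any tag library. Of the 31-base words of the Eif2s2 coding sequence 84.0% occur elsewhere, but 0% of those in the last 500 bases of its longest coding transcript. Whether the 3′ tags fall within those bases was not tested. How reads with several positions were counted is not given in the sources used here, so values of such genes are uncertain, and the part of the copies in these differences was not tested.

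In the Eif1 group, Eif1 fell in full-length libraries while Eif1a and Eif1ad rose. Eif1 had 130.3 and 145 CPM in Smart-seq / C1 and 110.1 and 96.1 CPM in Smart-seq2, against 1443 and 1369 CPM in CEL-seq2, 584 and 626 CPM in MARS-seq, 434 and 369 CPM in Drop-seq and 555 and 563 CPM in SCRB-seq. The groups did not overlap (log2 fold change −2.47 ± 0.19, adjusted p = 6.1e-09), and CEL-seq2 was the highest. Its paralog Eif1b, of close to the same protein, had 16.2 and 31.6 CPM in Smart-seq / C1 and 32.0 and 31.8 CPM in Smart-seq2, against 28.7 to 55.2 CPM in the tag libraries, and did not pass (−0.60 ± 0.28, adjusted p = 0.092). Eif1a, whose protein holds the small subunit open for scanning, had 551 and 1235 CPM in Smart-seq / C1 and 334 and 358 CPM in Smart-seq2, against 116 to 348 CPM in the tag libraries, where CEL-seq2 B was the highest (1.60 ± 0.22, adjusted p = 1.2e-05). Eif1ad rose too (0.88), but did not pass with the length trend removed (0.32) or with cells thinned to 10000 counts. Eif1ax, the X-linked relative of Eif1a, did not pass (−0.10), and passed as lower with the length trend removed (−0.58).

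Every 31-base word of the Eif1 coding sequence occurs elsewhere in the genome, and 70.4% of those of its transcript, against 0.498% for Eif1b. The last 60 coding bases show how close the copies are. They span 2 exons in Eif1, at chr11:100321035-100321361, and in Eif1b, at chr9:120494622-120494957, and are unbroken in the processed pseudogenes Eif1-ps1, at chr14:40006496-40006555, and Gm16378, at chr8:122842013-122842072 (all plus strand, GRCm38).
Eif1: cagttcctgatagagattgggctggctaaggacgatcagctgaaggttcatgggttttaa
Eif1b: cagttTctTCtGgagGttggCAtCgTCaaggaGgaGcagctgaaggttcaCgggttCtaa
Eif1-ps1: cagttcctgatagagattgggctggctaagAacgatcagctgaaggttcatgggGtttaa
Gm16378: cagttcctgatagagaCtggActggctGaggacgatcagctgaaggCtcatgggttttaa
Eif1b differs from Eif1 at 14 of the 60 bases, Eif1-ps1 at 2 and Gm16378 at 4. The Eif1-ps1 row held 24 raw counts in the full-length libraries, which have the larger totals, and 277 in the tag libraries. Eif1 also shares 304 words of 31 bases with transcripts of Emd, an unrelated gene of the nuclear envelope.

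Of the 5 genes of the exchange factor Eif2b, 4 rose in full-length libraries, 0 fell and Eif2b5 did not pass, with a median log2 fold change of 0.91. Eif2b3, the γ subunit, had 126 and 222 CPM in Smart-seq / C1 and 102 and 109 CPM in Smart-seq2, against 31.2 and 37.9 CPM in CEL-seq2, 23.3 and 30.6 CPM in MARS-seq, 65.0 and 63.1 CPM in Drop-seq and 70.8 and 67.0 CPM in SCRB-seq. Every full-length library was above every tag library (1.58 ± 0.22, adjusted p = 8.9e-06). Eif2b1, the regulatory α subunit, rose by 1.29, Eif2b4 by 0.91 and Eif2b2 by 0.89 on the log2 scale, while Eif2b5, the catalytic ε subunit, did not pass (0.49). Eif2b5 did pass without the filter and with limma on mean log values. With the length trend removed, Eif2b1 (0.79) and Eif2b3 (1.03) still passed and Eif2b2 (0.52) and Eif2b4 (0.40) did not. None of the 4 Eif2ak kinases passed in edgeR (values 0.41 to 0.74, and 1 of 4 at an unadjusted p below 0.05). Eif2ak1, Eif2ak2 and Eif2ak4 passed with limma on mean log values. In edgeR, Eif2ak4 passed without the filter and without Smart-seq / C1 A, Smart-seq2 A, Drop-seq A or Drop-seq B, and Eif2ak1 without CEL-seq2 B or Drop-seq B. Eif2d, which can bring in the initiator transfer RNA without Eif2, had 143 and 392 CPM in Smart-seq / C1 and 243 and 219 CPM in Smart-seq2, against 63.1 to 117 CPM in the tag libraries (1.54 ± 0.25, adjusted p = 4.9e-05). Eif2a, a lone protein distinct from the Eif2 trimer, rose by 0.64, but by 0.29 and without passing when Smart-seq / C1 B was left out, and by 1.07 without Smart-seq / C1 A. It did not pass without MARS-seq B either.

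**Figure D2:**
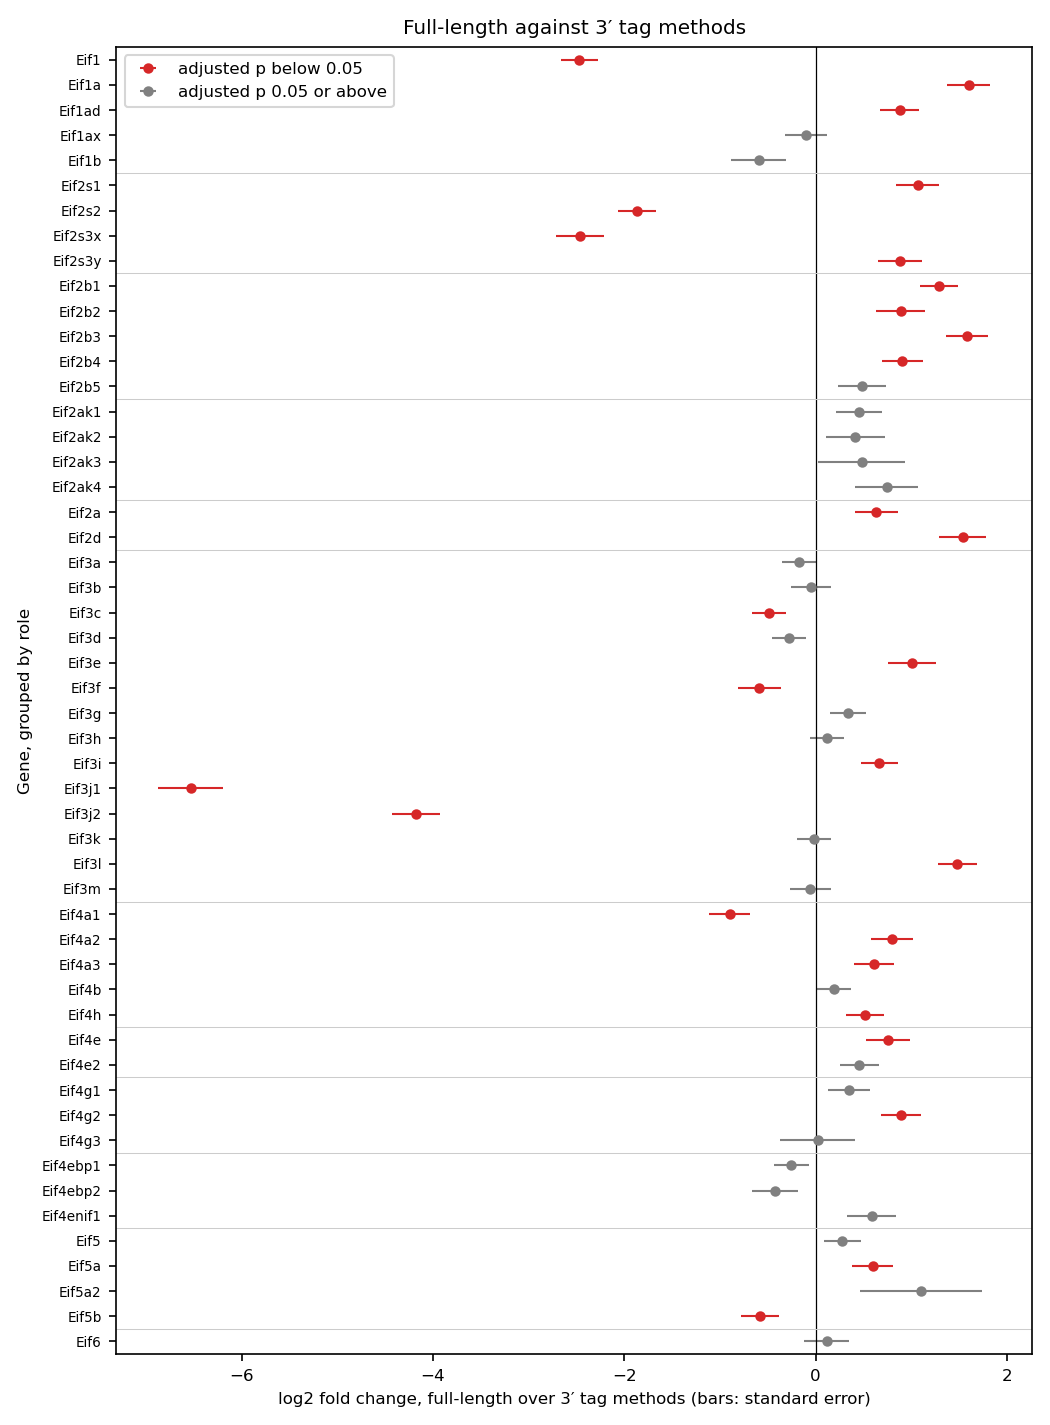
Points give the log2 fold change of full-length over 3′ tag methods for each of the 52 tested genes, grouped by role, and bars its standard error (red, adjusted p below 0.05; grey, not passed). Eif3j1 at −6.53 and Eif3j2 at −4.17 lie far to the left, followed by Eif1, Eif2s3x and Eif2s2, and 4 of the 5 Eif2b genes lie to the right in red.

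Of the 14 Eif3 genes, 3 rose and 4 fell in full-length libraries and 7 did not pass, with a median log2 fold change of −0.05. Eif3j1 and Eif3j2 encode the loosely bound j subunit, which sits near the decoding site. Eif3j1 had 4.89 and 1.97 CPM in Smart-seq / C1 and 0.739 and 0.869 CPM in Smart-seq2, against 59.1 and 91.8 CPM in CEL-seq2, 159 and 154 CPM in MARS-seq, 454 and 288 CPM in Drop-seq and 129 and 137 CPM in SCRB-seq. Eif3j2 had 14.4 and 22.2 CPM in Smart-seq / C1 and 5.36 and 6.31 CPM in Smart-seq2, against 82.7 and 117 CPM in CEL-seq2, 170.1 and 175 CPM in MARS-seq, 480.4 and 359 CPM in Drop-seq and 162 and 173 CPM in SCRB-seq. Neither gene overlapped between the groups, Smart-seq2 was the lowest and Drop-seq the highest for both, and the log2 fold changes were −6.53 ± 0.34 (adjusted p = 2.6e-11) and −4.17 ± 0.25 (adjusted p = 1.7e-10). The Eif3j1 value in full-length libraries rests on 31 to 103 reads per library.

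The 2 genes share 2207 words of 31 bases, which is 41.0% of the words of Eif3j1 and 93.9% of those of Eif3j2, and how reads of such shared stretches were counted is not given in the sources used here. From cell to cell, levels of the pair went together in every tag library (Spearman 0.33 to 0.70 over 29 to 45 cells) and not in the full-length libraries (−0.17 to 0.14 over 61 to 80 cells). These are descriptions of cells that share a library, and the counts per cell in the full-length libraries are sparse. Eif3j2 counts were 1.06 to 1.40 times those of Eif3j1 in tag libraries, and 2.95 to 11.3 times in full-length libraries.

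Of the other Eif3 genes, Eif3l had 511 and 980.5 CPM in Smart-seq / C1 and 710.2 and 743 CPM in Smart-seq2, against 95.3 and 141 CPM in CEL-seq2, 224 and 293 CPM in MARS-seq, 305 and 405 CPM in Drop-seq and 409 and 481 CPM in SCRB-seq. It was above the tag libraries in every full-length library (1.48 ± 0.20, adjusted p = 8.9e-06), and CEL-seq2 was the lowest. Eif3e rose by 1.01 (0.65 without Smart-seq / C1 B) and Eif3i by 0.67 on the log2 scale. Without Smart-seq / C1 B, where Eif3i had 765 CPM against 362 to 387 CPM in the other full-length libraries, the Eif3i value was 0.35 and did not pass, and it was 1.09 without Smart-seq / C1 A. Eif3c fell by 0.49 and Eif3f by 0.59, and each passed in only 4 of the 12 fits that leave out 1 library, with −0.33 for Eif3f and −0.26 for Eif3c without Smart-seq2 B. Eif3f had 169 and 69.6 CPM in Smart-seq / C1 and 449 and 406 CPM in Smart-seq2, against 187 to 532 CPM in the tag libraries. Only Smart-seq / C1 thus lay below the tag libraries, while Smart-seq2 lay within their range and above their median of 351 CPM. The remaining 7, Eif3a, Eif3b, Eif3d, Eif3g, Eif3h, Eif3k and Eif3m, had values between −0.28 and 0.34 and did not pass. With the length trend removed, which lowers the full-length values of long transcripts, Eif3a (−0.66), Eif3b (−0.61) and Eif3d (−0.76) passed as lower and Eif3g (0.92) and Eif3k (1.34) as higher.

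**Figure D3:**
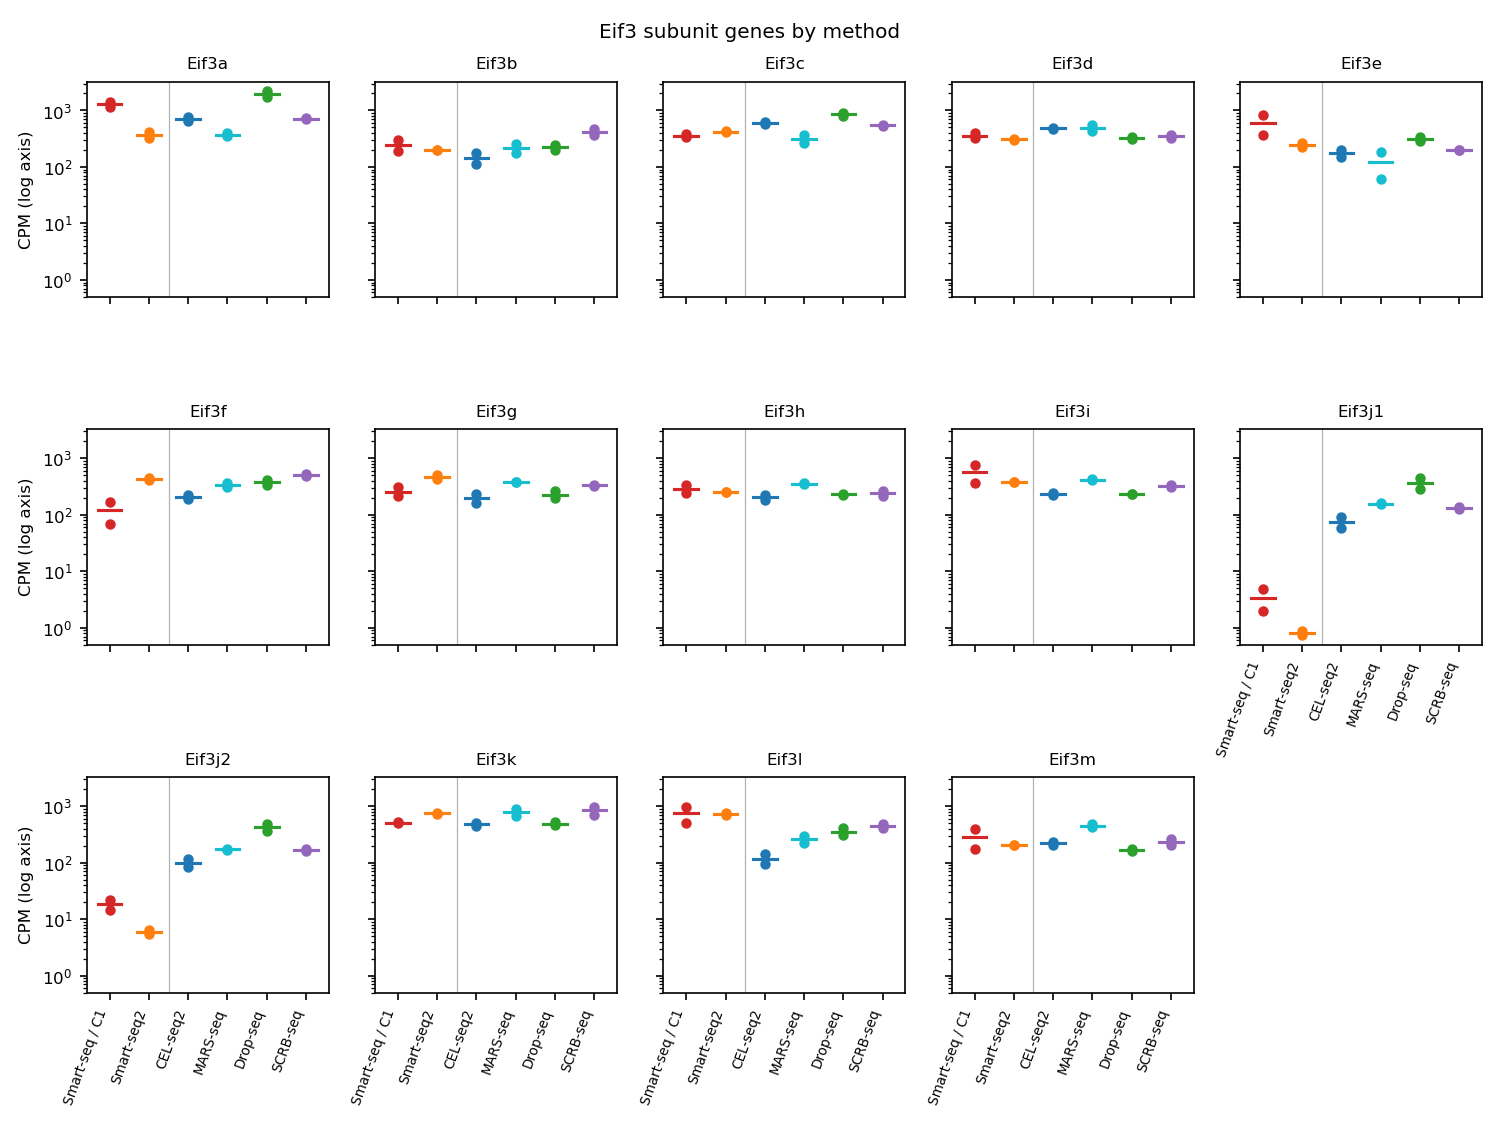
Each panel is 1 of the 14 Eif3 genes, points are the 2 libraries of each method in CPM on a log axis, bars their mean, and the grey line parts the full-length methods (left) from the tag methods. Eif3j1 and Eif3j2 sit far lower in the full-length methods, Eif3a is high with Smart-seq / C1 and Drop-seq, and Eif3d stays between 306 and 561 CPM.

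In the Eif4 family, the helicase genes differed between relatives. Eif4a1, the main helicase of the cap-binding complex, had 515 and 249.9 CPM in Smart-seq / C1 and 227 and 251 CPM in Smart-seq2, against 300.3 and 273 CPM in CEL-seq2, 883 and 1248 CPM in MARS-seq, 667 and 648 CPM in Drop-seq and 513 and 488 CPM in SCRB-seq. It fell (−0.90 ± 0.21, adjusted p = 0.0020), with CEL-seq2 at the level of the full-length libraries, and did not pass without Smart-seq2 A. Its paralog Eif4a2 had 559 and 834 CPM in Smart-seq / C1 and 294 and 274 CPM in Smart-seq2, against 158 to 539.9 CPM in the tag libraries, and rose (0.80 ± 0.22, adjusted p = 0.0055). Of the 31-base words of the Eif4a1 transcript 91.3% occur elsewhere in the genome, and 41.3% of those of Eif4a2. Eif4a3, the helicase of the exon junction complex, rose by 0.61 and Eif4h, a partner of Eif4a, by 0.52, and neither passed with DESeq2's size factors. Eif4h passed in 6 of the 12 fits that leave out 1 library (0.79 without Smart-seq2 B), and Eif4a3 in all but that without SCRB-seq B. With the length trend removed Eif4a2 (0.23) and Eif4a3 (0.35) did not pass either, and Eif4h turned to −0.05. Eif4h had 229 and 162 CPM in Smart-seq / C1 and 476 and 404 CPM in Smart-seq2, against 149 to 286 CPM in the tag libraries. Only Smart-seq2 thus lay above the tag libraries for Eif4h, and Smart-seq / C1 lay within their range. Eif4e, the cap-binding protein, rose by 0.76, but by 0.32 and without passing when Smart-seq / C1 B, with 420 CPM, was left out, and by 1.23 without Smart-seq / C1 A. Eif4g2, a scaffold that works without the cap-binding protein, rose by 0.89, but was at 0.47 and did not pass with the length trend removed, and Eif4g1, the main scaffold (0.35), and Eif4g3 (0.02) did not pass. None of the 3 tested genes that hold Eif4e back or carry it passed in edgeR (Eif4ebp1 −0.26, Eif4ebp2 −0.43, Eif4enif1 0.58; 1 of 3 at an unadjusted p below 0.05). Eif4ebp1 and Eif4ebp2 passed with DESeq2's own test and with the length trend removed, both as lower, and Eif4enif1 passed with limma on mean log values. In edgeR, Eif4enif1 passed without the filter and without Smart-seq / C1 A, Smart-seq2 A, SCRB-seq A or Drop-seq B, and Eif4ebp1 with cells thinned before summing.

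Of the Eif5 group, Eif5a rose by 0.60, with 905 and 1776 CPM in Smart-seq / C1 and 2221 and 2260.0 CPM in Smart-seq2, against 669.9 to 2388 CPM in the tag libraries, and it did not pass without Smart-seq / C1 B (0.31), CEL-seq2 A, MARS-seq A, SCRB-seq B or Drop-seq A, and was at 0.998 without Smart-seq / C1 A. Eif5b, the GTPase of subunit joining, fell by 0.58, a call that 6 of the 12 fits leaving out 1 library kept and that was lost without the filter. With limma on mean log values it was 0.12 and did not pass. It was −0.38 without Smart-seq2 A and −0.36 without Smart-seq2 B. Eif5, which triggers GTP hydrolysis by Eif2 (0.28), Eif5a2 (1.10) and Eif6, which keeps the large subunit from joining early (0.11), did not pass.

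Genes were also split by their copies. Of all genes tested, 23.2% were lower. Of the 7 tested genes with at least 50% of their 31-base words elsewhere, 5 were lower in full-length libraries (Eif1, Eif2s3x, Eif3j1, Eif3j2 and Eif4a1), 1 was higher (Eif3e) and 1 did not pass (Eif3m), with a median log2 fold change of −2.47. Of the other 45, 18 were higher, 4 were lower and 23 did not pass, with a median of 0.48. The split depends on the stretch searched. By the words of the last 500 bases alone, 12 genes reached 50%. Of these, the same 5 were lower, 4 were higher (Eif3e, Eif4a2, Eif4a3 and Eif5a) and 3 did not pass, with a median of −0.12, and the other 40 had a median of 0.47. Across the 52 genes, the log2 fold change and the share of words elsewhere had a Spearman correlation of −0.40, a description over genes of 1 family and the same libraries. The part of the copies in the levels was not tested. The exons of Eif1ad, Eif2ak1, Eif3d, Eif3j1 and Eif5b also share words with Banf1, Aimp2, the antisense gene Gm17638, Spg11 and Rev1, and how such reads were counted is not known for the read counts, so these genes are uncertain as well.

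**Figure D4:**
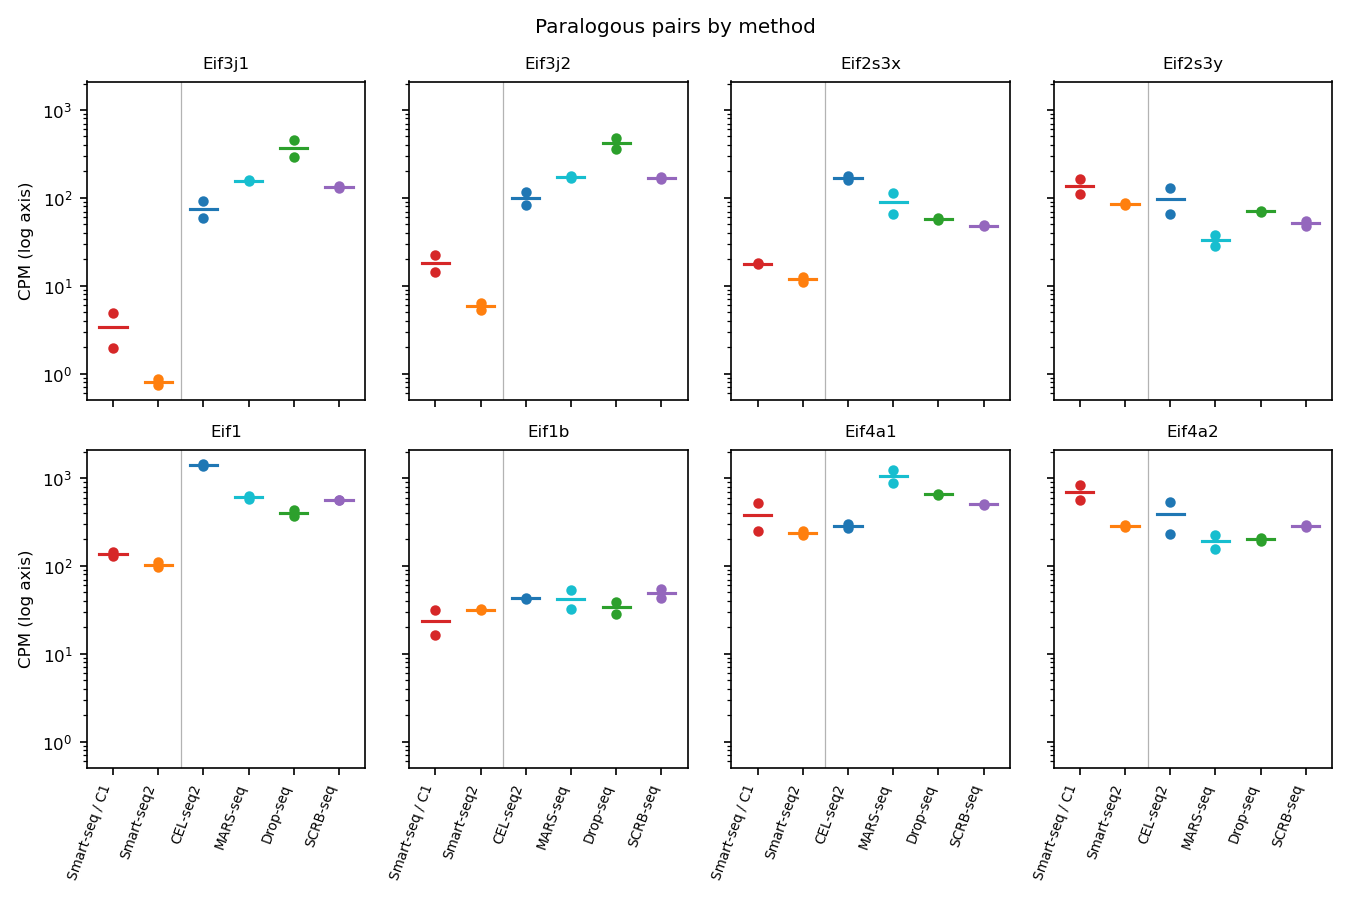
Each panel is 1 gene of a paralogous pair (Eif3j1 and Eif3j2, Eif2s3x and Eif2s3y, Eif1 and Eif1b, Eif4a1 and Eif4a2), points are the 2 libraries of each method in CPM on a log axis, bars their mean, and the grey line parts the full-length methods (left) from the tag methods. Eif2s3x and Eif1 are lower in every full-length library than in any tag library, while Eif2s3y and Eif1b overlap between them.

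Between the 2 full-length methods, 8 genes were higher in Smart-seq / C1 than in Smart-seq2, 4 were lower and 40 did not pass, so 23.1% passed, against 15.6% of all genes tested (8.75% higher and 6.81% lower). The median log2 fold change was 0.30 over the 52 genes and 0.11 over all genes. Eif3a had 1166 and 1417 CPM in Smart-seq / C1, against 409.7 and 324 CPM in Smart-seq2 (log2 fold change 1.82 ± 0.30, adjusted p = 6.7e-04). Eif3f had 169 and 69.6 CPM in Smart-seq / C1, against 449 and 406 CPM in Smart-seq2 (−1.84 ± 0.37, adjusted p = 0.0026). Eif6 had 120.0 and 112 CPM in Smart-seq / C1, against 444 and 457 CPM in Smart-seq2 (−1.95 ± 0.39, adjusted p = 0.0029). The 2 libraries of each method lay close together for Eif6 and Eif3a and apart for Eif3f in Smart-seq / C1, and these 3 calls held in all 12 fits that leave out 1 library. The split was 5 higher and 5 lower with cells thinned before summing, and 1 higher and 5 lower with limma on mean log values.

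Also higher in Smart-seq / C1 were Eif3j1 (2.09), Eif3j2 (1.65), Eif4enif1 (1.71), which carries Eif4e into the nucleus, Eif4e (1.43), Eif2a (1.39), Eif1a (1.37) and Eif4a2 (1.29), and Eif4h (−1.17) and Eif4ebp1 (−1.09) were lower. Eif4ebp1 had 356 and 434 CPM in Smart-seq / C1, against 867 and 813 CPM in Smart-seq2. Library B of Smart-seq / C1 carried some of these: without it Eif4e was at 0.54, Eif1a at 0.67 and Eif2a at 0.70, and none of these passed, nor did Eif4a2 and Eif4h. Without Smart-seq / C1 A, Eif3j1 was at 1.25 and did not pass. Of the 52 genes, 3 passed without Smart-seq2 A (Eif3a, Eif3f and Eif6), and 4 without Smart-seq2 B (these and Eif3j1). In the edgeR fit to all counts of the 12 libraries, no gene of the Eif2 trimer, Eif2b, the kinases, Eif4g or the Eif5 group passed. Of these groups, 2, 1, 0, 0 and 0 genes had an unadjusted p below 0.05 there. In the other settings that keep all 12 libraries, Eif2b2 passed with cells thinned on mouse genes plus spike-ins, Eif2s2 with DESeq2's own test and Eif5a with limma on mean log values. Fits that leave 1 Smart-seq / C1 library gave further calls in the Eif2 trimer, Eif2b and the Eif5 group, which rest on that 1 library.

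Among the tag methods, 5 genes were higher in the IVT methods (CEL-seq2 and MARS-seq) than in the PCR methods (Drop-seq and SCRB-seq), 13 were lower and 34 did not pass, so 34.6% passed, against 22.0% of all genes tested (9.14% higher and 12.9% lower). The median was −0.05 over the 52 genes and −0.08 over all genes. Of the 14 Eif3 genes 7 fell, 0 rose and 7 did not pass, with a median of −0.70. Eif3m (0.67) and Eif3d (0.55) lay on the other side, both with an adjusted p above the threshold here, and both passed as higher when either Smart-seq / C1 library was left out. Eif3e, with 61.2 to 199 CPM in the IVT and 198 to 344 CPM in the PCR libraries, did not pass here. It passed without the filter, with limma on mean log values and with cells thinned before summing, but not with DESeq2's size factors or own test. Eif3a had 644 and 777 CPM in CEL-seq2 and 347 and 393 CPM in MARS-seq, against 2183 and 1720.0 CPM in Drop-seq and 729 and 693 CPM in SCRB-seq (log2 fold change −1.20 ± 0.21, adjusted p = 7.0e-04). The groups overlapped, since CEL-seq2 lay beside SCRB-seq. Eif3l (−1.18), Eif3j1 (−1.03), Eif3j2 (−1.01), Eif3b (−0.78), Eif3f (−0.74) and Eif3c (−0.66) were the others. Of these, Eif3f passed in only 2 of the 12 fits that leave out 1 library, Eif3c in 4 and Eif3b in 5.

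Eif5b had 524 and 544 CPM in CEL-seq2 and 165 and 118 CPM in MARS-seq, against 1845 and 1334 CPM in Drop-seq and 465 and 311 CPM in SCRB-seq (−1.52 ± 0.23, adjusted p = 1.9e-04). Eif5 fell as well, with 149 to 301 CPM in the IVT libraries, against 445 to 538 CPM in the PCR libraries and no overlap (−1.06 ± 0.23, adjusted p = 0.0032). Eif5a rose, with 1486 and 2388 CPM in CEL-seq2 and 1275 and 1944 CPM in MARS-seq, against 767 and 756 CPM in Drop-seq and 787 and 669.9 CPM in SCRB-seq (1.25 ± 0.25, adjusted p = 0.0023). All 4 IVT libraries were above all 4 PCR libraries. Eif1 (0.96), Eif2s3x (1.21), Eif2b1 (1.25) and Eif4ebp2 (1.21) rose too, the last through CEL-seq2 alone, as given below. Eif4g3 (−2.03), Eif2b3 (−1.11), Eif2b4 (−0.87) and Eif2s2 (−0.82) fell. Eif2b1 had 143, 218, 96.7 and 101 CPM in the IVT libraries, against 50.7, 51.8, 64.5 and 59.1 CPM in the PCR libraries, without overlap. Eif2b thus had 1 gene higher and 2 lower. The Eif2b4 call held in 4 of the 12 fits that leave out 1 library, and that of Eif4g3 in all but the one without Drop-seq A.

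Between the 2 IVT methods, 8 genes were higher in CEL-seq2 than in MARS-seq, 5 were lower and 39 did not pass, so 25.0% passed, against 23.4% of all genes tested. The split depends on the scaling: DESeq2's size factors, which move the median of all genes by −0.17, gave 6 higher and 10 lower, lost Eif3a and Eif3c and added Eif3h, Eif3i, Eif3j1, Eif3j2 and Eif3k. Cells thinned before summing gave 4 higher and 10 lower, and limma on mean log values 19 higher and 1 lower. Eif4ebp2, a second repressor of Eif4e, had 144 and 166 CPM in CEL-seq2, against 28.7 and 23.5 CPM in MARS-seq (log2 fold change 2.58 ± 0.43, adjusted p = 3.1e-04). The other 8 libraries of the study had 25.3 to 42.0 CPM of Eif4ebp2, so that only the CEL-seq2 libraries stood out. Eif5b was higher in CEL-seq2 (1.93 ± 0.33, adjusted p = 4.6e-04), with the values given above, and so was Eif4g2, with 584 and 1231 CPM, against 276 and 207 CPM in MARS-seq (1.92 ± 0.37, adjusted p = 0.0012). Eif4a1 was lower, with 300.3 and 273 CPM in CEL-seq2, against 883 and 1248 CPM in MARS-seq (−1.90 ± 0.35, adjusted p = 7.9e-04).

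Eif1 (1.22), Eif2a (1.31), Eif2s3y (1.54), Eif3a (0.94) and Eif3c (0.92) were also higher in CEL-seq2, and Eif2b2 (−1.59), Eif3l (−1.12), Eif3m (−1.05) and Eif3g (−0.96) were lower. Of the 14 Eif3 genes 2 were higher and 3 lower, with a median of −0.75, and of these 5 Eif3l passed in 9 and Eif3a, Eif3c, Eif3g and Eif3m in 5 or 6 of the 12 fits that leave out 1 library. Without CEL-seq2 A the Eif2s3y value was 0.97, and without MARS-seq A the Eif2b2 value was −0.96, and neither passed. Eif2s3y did not pass when either MARS-seq library was left out, nor Eif2b2 without CEL-seq2 A. Of the 52 genes, 6 passed when either MARS-seq library was left out, 22 without Smart-seq / C1 A and 23 without Smart-seq / C1 B. Eif2a and Eif3l did not pass when either MARS-seq library was left out, and Eif4g2 was at 1.28 without CEL-seq2 B and still passed. Ddx3y and Uty, the other tested Y-linked genes, were higher in CEL-seq2 as well (2.91 and 3.94), and their part in the Eif2s3y value was not tested.

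Between the 2 PCR tag methods, 2 genes were higher in Drop-seq than in SCRB-seq, 1 was lower and 49 did not pass, so 5.77% passed, against 1.51% of all genes tested (1.03% higher and 0.483% lower). At an unadjusted p below 0.05 there were 11 of 52. Eif5b had 1845 and 1334 CPM in Drop-seq, against 465 and 311 CPM in SCRB-seq (log2 fold change 2.04 ± 0.32, adjusted p = 0.0036). Eif3a had 2183 and 1720.0 CPM in Drop-seq, against 729 and 693 CPM in SCRB-seq (1.46 ± 0.30, adjusted p = 0.022). Eif4ebp1 had 334 and 445 CPM in Drop-seq, against 1046 and 1019 CPM in SCRB-seq (−1.41 ± 0.31, adjusted p = 0.027). Each pair of libraries lay on its own side of the other. There were 2 libraries a side, and a fit that leaves 1 of them assumes that it varies like the libraries of the other methods. With 1 Smart-seq / C1 library left out 6 genes passed, and without Drop-seq B 1 did. Without Drop-seq A, SCRB-seq A or SCRB-seq B, 0 of the 52 genes passed in edgeR, with 7, 6 and 11 at an unadjusted p below 0.05. Eif3j2 (1.33, adjusted p = 0.054) and Eif3j1 (1.48, adjusted p = 0.067) came next and passed with DESeq2's size factors, which move the median of all genes by 0.20 and gave 4 higher and 1 lower. Limma on mean log values gave 2 higher and 7 lower.

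The 12 subunits of the Eif3 core (all Eif3 genes but Eif3j1 and Eif3j2), which stand in the complex in equal number, did not have equal RNA levels in any library. The highest subunit exceeded the lowest by 8.21 to 24.6 times in the full-length libraries (CPM per kilobase), where Eif3k or Eif3i was the highest and Eif3f, Eif3b or Eif3a the lowest. In the tag libraries (CPM) the ratio was 3.58 to 13.4, from 3.58 in SCRB-seq B to 13.4 in Drop-seq A. There Eif3a was the highest in CEL-seq2 and Drop-seq and Eif3k in MARS-seq and SCRB-seq, and Eif3l, Eif3b, Eif3e or Eif3m was the lowest. The order of the subunits therefore differs with the method, and the 2 libraries of a method named the same highest gene except in Smart-seq / C1.

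When every cell was thinned to 10000 mouse gene counts, a cell showed at least 1 count for 77.8% ± 1.62 of the 14 Eif3 genes with Smart-seq / C1 and 82.6% ± 0.922 with Smart-seq2 (SD, n = 2 libraries). The share was 81.6% ± 4.23 in CEL-seq2, 84.4% ± 0.518 in MARS-seq, 90.9% ± 3.03 in Drop-seq and 93.6% ± 0.311 in SCRB-seq. The PCR tag libraries were the highest over the 14 genes, which include Eif3j1 and Eif3j2. Over the 12 genes without this pair, the share was 89.7% ± 1.26 with Smart-seq / C1, 95.9% ± 0.863 with Smart-seq2, 86.2% ± 2.32 with CEL-seq2, 87.4% ± 0.0990 with MARS-seq, 90.1% ± 3.64 with Drop-seq and 96.1% ± 0.446 with SCRB-seq. Smart-seq2 and SCRB-seq then overlapped, and both Smart-seq2 libraries were above both Drop-seq libraries. Eif5a had a count in all 583 thinned cells, Eif2s2 in 576, Eif3k and Eif4ebp1 in 574 each and Eif3a in 570. At the other end, the 3 genes that were not tested, Eif4ebp3, Eif4e1b and Eif4e3, were seen in 1, 2 and 3 cells, and of the tested genes Eif5a2 was seen in 45 cells, Eif2ak3 in 46, Eif4g3 in 82 and Eif2ak2 in 87. Eif3j1 was seen in 212 cells, at most 2 of them in any full-length library.

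Among cells of 1 library, levels of the Eif3 core subunits did not go together at this depth. The median Spearman correlation over the 66 pairs of core subunits was −0.02 to 0.08 in the 12 libraries, and over pairs of a core subunit and another initiation factor gene −0.02 to 0.02. These are descriptions over 29 to 80 cells, and sparse counts pull such correlations toward 0. The summed counts of the 12 core subunits per thinned cell averaged 34.1 to 60.8 by library, with a variance 1.53 to 2.43 times the mean in the tag libraries, where counting of UMIs alone would give 1. In the full-length libraries it was 1.35 to 2.81 times the mean, where reads without UMIs are not independent molecules.

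Variation among cells was tested as the squared coefficient of variation of the thinned counts, on a log2 scale, above the trend on mean count in each library, for the 2647 genes whose mean reached 0.2 counts in all 12 libraries. Of the 40 initiation factor genes among them, 2 varied more than genes of the same mean (Eif2s2 and Eif2s3y), 2 varied less (Eif1 and Eif4e) and 36 did not pass (limma, adjusted p below 0.05). Of all genes tested 5.44% passed, 2.68% as more and 2.76% as less variable. Eif2s2 was 0.55 ± 0.10 above the trend (adjusted p = 8.6e-04), with 9 of 12 libraries above it, Drop-seq B at 1.46 and CEL-seq2 A at 1.24 the highest and Smart-seq / C1 A at −0.40 the lowest. It passed in all 12 fits that leave out 1 library. Eif2s3y was 0.37 ± 0.10 above it (adjusted p = 0.031), also in 9 of 12 libraries. Eif1 was 0.37 ± 0.10 below it (value −0.37, adjusted p = 0.020), with 10 of 12 libraries below, and Eif4e was at −0.38 ± 0.10 (adjusted p = 0.029), with 9 of 12 below. Leaving out 1 library kept the calls of Eif1 in 7, Eif2s3y in 4 and Eif4e in 3 of 12 fits, and Eif2s2 alone passed without Smart-seq / C1 B, Smart-seq2 A or SCRB-seq B. None of the 12 Eif3 genes tested passed (3 at an unadjusted p below 0.05), and their median was −0.17, against −0.01 for all genes. Eif3a did pass when cells with over 2 times the median count of their library were left out.

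These calls depend on how cells are brought to 1 depth. Thinned to 5000 counts, 34 initiation factor genes could be tested, Eif2s3y not among them, and 0 passed in limma, with 5 at an unadjusted p below 0.05. Thinning on mouse genes alone, as used here, was chosen after seeing the data. With spike-in counts kept in the total, as in the setting used before it, Eif2s3y alone passed, and Eif2s2 was at 0.30. With neighbouring Drop-seq barcodes joined, Eif2s2 (0.44) passed together with Eif4a1, and Eif1 (−0.25), Eif2s3y (0.28) and Eif4e (−0.13) did not.

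Cells without Eif2s3y were looked at beside the other Y-linked genes. In Smart-seq2 A, 11 of 80 cells had no read of Ddx3y, Kdm5d and Uty, and 7 of these 11 also lacked Eif2s3y, against 2 of the 69 cells with such reads. In Smart-seq2 B, 15 of 77 cells had none, and 9 of these 15 also lacked Eif2s3y, against 6 of 62. Of all cells without Eif2s3y, 9 in library A and 15 in library B, 7 and 9 thus also lacked the other 3 genes. CPM in this paragraph are counts over the mouse gene total of the same cells, without TMM scaling. They are therefore not on the scale of the library levels above. Summed over cells, Eif2s3y had 30.02 CPM in the cells without and 118 CPM in the cells with reads of the other 3 genes in library A, and 25.4 and 107 CPM in library B. Eif2s3x had 17.5 and 14.9 CPM in library A and 11.8 and 12.2 CPM in library B, and the cells without and with those reads had median totals of 440199 and 439696 mouse gene reads in A and 438164 and 437335 in B, which were close between the 2 sets of cells. Eif2s3x carries the uncertainty of its copies. In Smart-seq / C1, 1 cell of each library had no read of the other 3 genes, and only that of library B also lacked Eif2s3y. Of the cells with such reads, 7 of 68 in library A and 6 of 60 in library B lacked Eif2s3y. Most zeros of Eif2s3y in Smart-seq / C1 thus lay in cells with reads of the other 3 genes. In the tag libraries, where a cell has fewer counts of these genes, Eif2s3y was lower in the cells without than in the cells with the other 3 genes in CEL-seq2, Drop-seq, SCRB-seq B (38.7 and 49.7 CPM) and MARS-seq B (32.8 and 36.7 CPM), but higher in SCRB-seq A (77.6 and 51.7 CPM) and MARS-seq A (27.4 and 13.0 CPM).

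Cells with no read of any of the 4 genes were 7 of 80 (8.75%, exact 95% binomial interval 3.59% to 17.2%, for counting error only) in Smart-seq2 A and 9 of 77 (11.7%, 5.49% to 21.0%) in Smart-seq2 B. In Smart-seq / C1 they were 0 of 69 and 1 of 61. In the tag libraries they were 4 of 34 and 7 of 37 in CEL-seq2, 17 of 29 and 16 of 36 in MARS-seq, 17 of 42 and 10 of 34 in Drop-seq and 0 of 39 and 2 of 45 in SCRB-seq. The medians of the 4 genes together were 0 to 12 counts per cell in the tag libraries, against 76 to 110 reads in the full-length libraries, so that a cell at 0 in MARS-seq or Drop-seq cannot be told from a cell of low depth. The state of the Y chromosome itself was not measured.

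**Figure D5:**
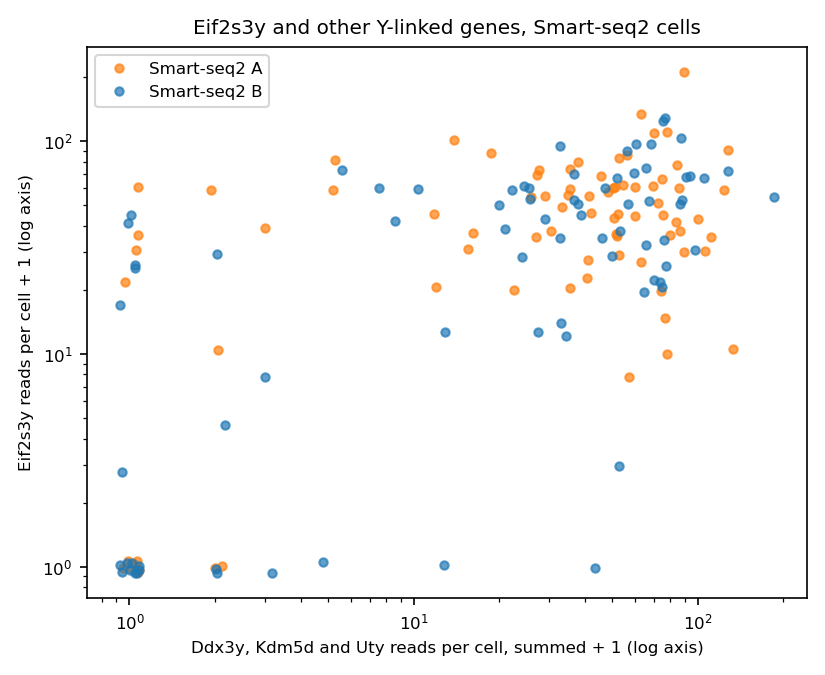
Each point is 1 Smart-seq2 cell (library A orange, library B blue), with the summed reads of Ddx3y, Kdm5d and Uty plus 1 on the x axis and the reads of Eif2s3y plus 1 on the y axis, both logarithmic, and a small jitter to part equal values. Most cells form 1 cloud, and 7 cells of library A and 9 of library B sit at the lower left with no read of any of the 4 genes.

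Other genes of translation were counted from a list of 44, all of them tested. The 2 genes of smallest p are named for each comparison. Full-length libraries gave higher levels of 16 and lower levels of 6, so that 22 of 44 passed, near the 48.8% of all genes tested, led by Impact, an inhibitor of Eif2ak4 signalling (log2 fold change 2.68), and Eef1g, a subunit of the elongation factor 1 complex (−2.10). In Smart-seq / C1 against Smart-seq2, 8 were higher and 2 lower (22.7%, against 15.6% of all genes), led by Akt1s1, an inhibitor of the mTOR kinase complex (−6.51), and Dohh, which makes hypusine on Eif5a (−2.46). In the IVT against the PCR tag methods, 2 were higher and 15 lower (38.6%, against 22.0%), led by Abcf1 (−1.57) and Denr (−1.35), which act in initiation and recycling. In CEL-seq2 against MARS-seq, 6 were higher and 7 lower (29.5%, against 23.4%), led by Eef1g (−1.81) and Bzw1, an Eif5 mimic (2.54). In Drop-seq against SCRB-seq, 2 were higher and 1 lower (6.82%, against 1.51%), led by Pabpc1, which binds poly(A) tails and Eif4g (1.88), and Mtor, the kinase that acts on Eif4ebp1 (−2.61).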

How the data were processed

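The deposited files hold counts per gene and cell for 583 J1 mouse embryonic stem cells. Per a note the authors deposited with the counts, UMIs were counted for CEL-seq2, MARS-seq, Drop-seq and SCRB-seq with the Drop-seq pipeline over exons, after alignment with STAR to mm10. The Smart-seq counts are reads, per the labels' protocols, which use no UMI, and their counter is not given in the sources used here. STAR 2.4.0 and mm10 also stand in the submitters' processing notes.

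From these counts the cells of each library were summed over mouse genes, without spike-ins. No doublet caller was run and no cell was removed as a doublet. The 10 cells with over 2 times the median count of their library were left out in an alternative for variation, where 5 genes passed. Genes were kept by filterByExpr and tested with edgeR 4.0.16 (R 4.3.3; TMM scaling, robust quasi-likelihood fit, 1 mean per method over all 12 libraries, 5 contrasts between methods and a joint test). P-values were adjusted by Benjamini and Hochberg over 14293 genes, with a threshold of 0.05, and SE is the log2 fold change divided by the root of F. Variation among cells was tested with limma 3.58.1 on cells thinned to 10000 mouse gene counts, above a loess trend (span 0.5). Words of 31 bases were taken from the longest coding transcript of each gene in GENCODE M21 and looked for on the primary chromosomes of GRCm38. DESeq2 1.42.0, other scalings, filters and thinning depths, a replicate block and leaving out 1 library at a time were the alternatives. The rule for the genes named took every Eif3 gene, in each other role group and comparison the 2 genes of smallest p and the one with the highest average level, a list of 20 genes, and genes called for variation. Genes named beyond it, such as those lost or gained under an alternative, were chosen after their values were seen.

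The genes and lists were chosen with earlier results of these data known. Thinning on mouse genes alone was chosen after seeing the data, since the share of spike-ins differed between libraries, and it replaced thinning on mouse genes plus spike-ins.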

Additional observations from a re-analysis of the deposited data

Results flagged for a closer look

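In 12 of 104 groups of libraries tested, 1 library stood apart from the rest of its group by the gap to its nearest neighbour over the range of the group, where chance gives about 1 in 20. The groups were the 4 full-length libraries and the 8 tag libraries, which pool methods, so a method can itself set a library apart. Of the 12, 5 were high values in Smart-seq / C1 B. Eif2s1 had 993 CPM there, with the nearest full-length library at 354, Eif3h had 342 with the nearest at 257, and Eif3i had 765 with the nearest at 387. Eif3m had 391 with the nearest at 207, and Eif4e had 420 with the nearest at 156. In Smart-seq / C1 A, Eif3b was high with 304 CPM (nearest 203) and Eif4a1 with 515 (nearest 251), while Eif1b was low with 16.2 (nearest 31.6) and Eif4e2, a cap-binding relative of Eif4e, was low with 308 (nearest 467). Among the tag libraries, CEL-seq2 A was high in Eif2s3y with 131 CPM (nearest 70.5) and in Eif4a2 with 539.9 (nearest 291), and CEL-seq2 B was high in Eif2ak1 with 72.4 (nearest 48.4). No cause of these values was tested.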

How the results depend on the processing

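Of 572 values of named genes under settings other than leaving out a library, 489 kept direction and call, 81 kept direction without passing, and 2 reversed. Eif5b in full-length against tag methods was 0.12 with limma on log2(CPM + 1) averaged over cells, and Eif4h there was −0.052 with the length trend removed, and the cause was not tested. With 1 library left out, 766 of 936 values of these 78 calls kept their call, 170 did not, and 0 reversed.

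With limma on mean log values, 6 genes passed in Smart-seq / C1 against Smart-seq2, 20 in CEL-seq2 against MARS-seq and 9 in Drop-seq against SCRB-seq. In the last, 5 passed with DESeq2's size factors, without a filter, and with cells thinned on either total, and 8 with DESeq2's own test. For variation among cells 0 passed at 5000 counts (limma; 5 at an unadjusted p below 0.05), 2 with Drop-seq barcodes joined and 1 with spike-ins in the thinned total, the setting used before thinning on mouse genes alone was chosen after seeing the data.

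Without 1 library, where a lone library left in a method is assumed to vary like those of the other methods, 24 to 33 genes passed in full-length against tag methods, 3 to 16 in Smart-seq / C1 against Smart-seq2, 13 to 22 in IVT against PCR, 6 to 23 in CEL-seq2 against MARS-seq, 0 to 6 in Drop-seq against SCRB-seq, 35 to 44 over all methods and 1 to 5 for variation. Without ribosomal and mitochondrial genes in the total, the share of counts was 1.87% in Smart-seq / C1, 1.84% in CEL-seq2, 1.48% in MARS-seq, 2.09% in Drop-seq and 1.84% in SCRB-seq. Smart-seq2 A was at 1.97% and Smart-seq2 B at 1.80%. At 5000 counts the share of Eif3 genes seen was 66.6%, 71.6%, 60.3%, 68.4%, 79.5% and 79.4% in Smart-seq / C1, Smart-seq2, CEL-seq2, MARS-seq, Drop-seq and SCRB-seq, and with spike-ins in the total it was 79.9% in Smart-seq2, 81.9% in MARS-seq and 90.3% in SCRB-seq. Libraries A and B of the other methods were then at 78.2% and 77.3% in Smart-seq / C1, 75.8% and 84.6% in CEL-seq2 and 90.3% and 92.0% in Drop-seq.

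The letters A and B did not pair libraries, with correlations of their deviations between methods of −0.099 to 0.088. With the letter as a replicate block, 28, 12, 18, 14 and 3 genes passed in the 5 comparisons in the order above, 37 over all methods and 4 for variation.
The lowest tag library held 583302 mouse gene counts, so genes such as Eif2ak3 and Eif5a2, with 0 to 34 counts in a tag library, could show large differences only.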
